A study of Mus musculus with 38 samples.

Results

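Crypts of the mouse proximal small intestine were profiled by RNA-seq 4 h after an injection of 1,25(OH)2D3 (calcitriol), the hormonal form of vitamin D, or of its vehicle. The comparison used 12 of the 38 libraries of the series: 6 vitamin D crypt libraries and 6 vehicle crypt libraries, all columns of the crypt table. The genes were those that reached 1 FPKM in 6 or more of these 12 libraries, which 10733 of 21441 genes did. FPKM is the number of fragments scaled by transcript length and library size. Vitamin D mice received 1,25(OH)2D3 intraperitoneally at 10 ng per g of body weight, and vehicle mice received 0.1 ml of a mixture of propylene glycol and ethanol. All mice were wild type, of the C57BL6/J strain and vitamin D deficient, so the vehicle libraries stand for deficient animals and not for vitamin D replete ones. The labels give an age of 10-13.3 weeks in one field and of 12 to 14 weeks in another. They describe the sex as pooled male and female, whereas the sex-linked genes gave a single-sex pattern in every crypt library, female in 5 and male in 1 (replicate 4) of each group. Crypts were detached with 3 mM EDTA from the first 10 to 15 cm of the intestine and parted from villi on a 70 µm filter. The sources used here do not give the number of mice per library, so the p-values speak to the spread among these samples alone, and that spread may be technical. The question behind the comparison is which genes of the crypt respond to the hormone.

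The hormone acts through the vitamin D receptor (gene Vdr), a nuclear receptor that pairs with a retinoid X receptor and binds paired hexamers in DNA, often far from the gene it controls. In the intestine it is best known for calcium absorption, in which calcium enters through a channel in the brush border, is carried through the cytosol by calbindin-D9k and leaves through a pump in the basolateral membrane. Crypts hold the stem and dividing progenitor cells of the epithelium together with Paneth cells, whereas the villi hold mature absorptive enterocytes.

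Vitamin D was followed by a rise of 121 genes in crypts (1.13% of 10733 tested) and a fall of 36 (0.335%), 157 in all (1.46%), called by limma on log2(FPKM + 0.5) at an adjusted p under 0.05. Fold changes are vitamin D minus vehicle on that log2 scale with their standard error, and they understate the change of low genes. Rises were larger than falls: 54 risen genes changed over 2-fold, 12 over 4-fold and 5 over 8-fold, against 5 fallen genes over 2-fold and 0 over 4-fold. The median log2 fold change was 0.93 over the risen genes, -0.65 over the fallen genes and -0.01 over all genes tested. Of all genes tested, 1639 (15.3%) had an unadjusted p under 0.05 in limma, and 5104 (47.6%) had a positive fold change. In 104 of the 121 risen genes all 6 vitamin D libraries lay above all 6 vehicle libraries, which was so for 132 of all tested genes (1.23%). In 26 of the 36 fallen genes all vitamin D libraries lay below all vehicle libraries, as in 56 of all tested genes (0.522%). Of the risen genes 55 already had a vehicle mean of 10 FPKM or more, and 12 had one under 1 FPKM. The filter let 7 genes in through vitamin D libraries alone and 2 through vehicle libraries alone, and a gene that passes in that way had to differ: all 7 were called higher and both others lower. Of 12843 genes with an adjusted p in the authors' deposited table, 308 were higher (2.4%) and 242 lower (1.88%) at the same threshold. With the replicate number as a block, 249 genes rose (2.32%) and 195 fell (1.82%), 444 in all (4.14%), among them 119 of the 121 and 34 of the 36. Without vehicle replicate 4 the counts were 616 and 449, and all 157 genes were among them. The fallen count was 18 to 23 without vitamin D replicate 1, 2, 3 or 5 or without vehicle replicate 1, 2, 3 or 5.

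Markers of Paneth cells, which lie in crypts, were abundant. Paneth cell genes summed to 16699 to 36008 FPKM in vitamin D libraries and 14481 to 36228 FPKM in vehicle libraries, led by the defensin gene Defa17 and the lysozyme gene Lyz1. Crypt-base stem cell genes summed to 301 to 411 FPKM in vitamin D libraries and 270 to 423 FPKM in vehicle libraries. Enterocyte genes summed to 11217 to 41900 FPKM in vitamin D libraries and 9322 to 68797 FPKM in vehicle libraries. These enterocyte ranges overlapped those of the Paneth sums, so the crypt samples also held much enterocyte RNA. In bulk samples, fewer cells of a type and less RNA per cell cannot be told apart. Of 18 marker genes of stroma, muscle and endothelium, 13 stayed under 0.5 FPKM in all 12 libraries, as did 6 of 11 for macrophages and 6 of 16 for lymphocytes and plasma cells. Depth was 15.5 to 17.5 M reads per library.

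Of 9 tested genes of calcium absorption 4 rose. S100g, which encodes calbindin-D9k, ranged over 2073, 2427 and 3195 FPKM (lowest, median and highest) in vitamin D libraries, against 57.1, 266 and 588 FPKM in vehicle libraries. The groups lay far apart, and vehicle replicate 4 was the lowest of all 12. The log2 fold change was 3.38 ± 0.43 (limma, adjusted p = 0.00091). Atp2b1, the basolateral calcium pump, had 69.0, 90.8 and 101 FPKM in vitamin D libraries and 19.5, 29.5 and 45.4 FPKM in vehicle libraries (1.56 ± 0.17, adjusted p = 0.00025). Orai1, the pore subunit of store-operated calcium channels, had 34.5, 45.2 and 54.5 FPKM in vitamin D libraries, against 14.9, 18.5 and 19.8 FPKM in vehicle libraries (1.30 ± 0.11, adjusted p = 5.9e-05). Its groups did not overlap, and the highest vehicle library stood well under the lowest vitamin D library. Cldn2, a tight junction protein that forms a paracellular cation pore, had 166, 314 and 495 FPKM in vitamin D libraries and 88.5, 124 and 144 FPKM in vehicle libraries (1.43 ± 0.25, adjusted p = 0.0109). These 4 were the called genes among the 9 tested members of the calcium list, of which 8 had a positive fold change (median 0.42, against -0.01 for all genes tested). The inositol trisphosphate receptor gene Itpr3, which was picked with its values known, had 24.2, 33.8 and 38.1 FPKM in vitamin D libraries and 19.5, 25.1 and 28.0 FPKM in vehicle libraries (0.42 ± 0.12, adjusted p = 0.134, and 0.0185 with the replicate block). Stim1, the store sensor that opens Orai1, stood at medians of 17.7 FPKM after vitamin D and 18.3 FPKM after vehicle (0.03 ± 0.08, adjusted p = 0.901). Trpv6, the brush border calcium channel, did not pass the filter, with 0.136, 1.35 and 2.51 FPKM in vitamin D libraries and 0.0702, 0.142 and 0.809 FPKM in vehicle libraries. The authors' deposited table gave Trpv6 a log2 fold change of 2.48 with an adjusted p of 0.00886.

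The promoter windows of S100g and of the sugar-phosphate exchanger gene Slc37a2 are shown because both genes rose over 8-fold and their windows held a hexamer of the kind that the receptor binds, so they were chosen after that search. Of the other genes that rose over 8-fold, the window of Prelp held 1 such hexamer, that of Wfdc16 held 0, and Cyp24a1 is named only. Both are RefSeq windows on assembly GRCm38.p6, from 250 bases before the transcript start to 50 after it, written 5′ to 3′ on the strand of the gene. The deposited tables use another build (mm9), and none of their values has a position. Capitals mark the hexamer AGGTCA, its variant AGTTCA, the hexamer GGGTCA or its variant GGTTCA, searched on both strands.
S100g, chrX:162964550-162964849, minus strand: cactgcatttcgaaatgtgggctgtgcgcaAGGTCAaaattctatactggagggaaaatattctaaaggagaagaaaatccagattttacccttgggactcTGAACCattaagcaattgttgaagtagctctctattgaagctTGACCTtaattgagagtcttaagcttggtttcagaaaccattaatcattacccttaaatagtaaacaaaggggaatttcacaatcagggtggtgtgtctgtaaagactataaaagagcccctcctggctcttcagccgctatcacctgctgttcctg
Slc37a2, chr9:37255689-37255988, minus strand: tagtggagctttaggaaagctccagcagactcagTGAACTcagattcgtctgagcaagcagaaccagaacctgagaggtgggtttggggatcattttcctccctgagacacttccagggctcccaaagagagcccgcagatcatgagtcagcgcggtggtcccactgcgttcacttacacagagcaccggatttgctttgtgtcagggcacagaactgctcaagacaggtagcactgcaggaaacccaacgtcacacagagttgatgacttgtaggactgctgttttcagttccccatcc
S100g held 3 such hexamers, at 220, 149 and 107 bases before the start, and Slc37a2 held 1, at 216 bases before it. A hexamer of this kind was in 41 of 102 windows of the risen genes that matched by symbol (40.2%, 80 genes), in 15 of 40 windows of the fallen genes (37.5%, 25 genes) and in 43.7% of all 32851 windows. A direct repeat of 2 hexamers with the spacer NNN was in 0 windows of either set and in 13 of all windows (0.0396%). A match describes the letters of the window only.

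Among genes of vitamin D reception and turnover, Cyp24a1 was the called one of 12 tested (median -0.04). It encodes the hydroxylase that inactivates the hormone, and it had 2516, 3668 and 4487 FPKM in vitamin D libraries, against 0.184, 0.462 and 7.35 FPKM in vehicle libraries (11.37 ± 0.48, adjusted p = 6.5e-08). The highest vehicle library was replicate 5, and the other 5 stayed under 1 FPKM. Vdr itself was abundant in both groups, with 180, 266 and 299 FPKM in vitamin D libraries and 130, 201 and 240 FPKM in vehicle libraries, and 3 vitamin D libraries lay above all vehicle libraries (0.34 ± 0.17, adjusted p = 0.381). The partner gene Rxra had medians of 16.5 FPKM after vitamin D and 17.9 FPKM after vehicle (-0.31 ± 0.22, adjusted p = 0.541). Cyp27b1, which makes the hormone, did not pass the filter with 0.0554, 0.156 and 0.260 FPKM in vitamin D libraries and 0.0319, 0.0828 and 0.181 FPKM in vehicle libraries.

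**Figure D1:**
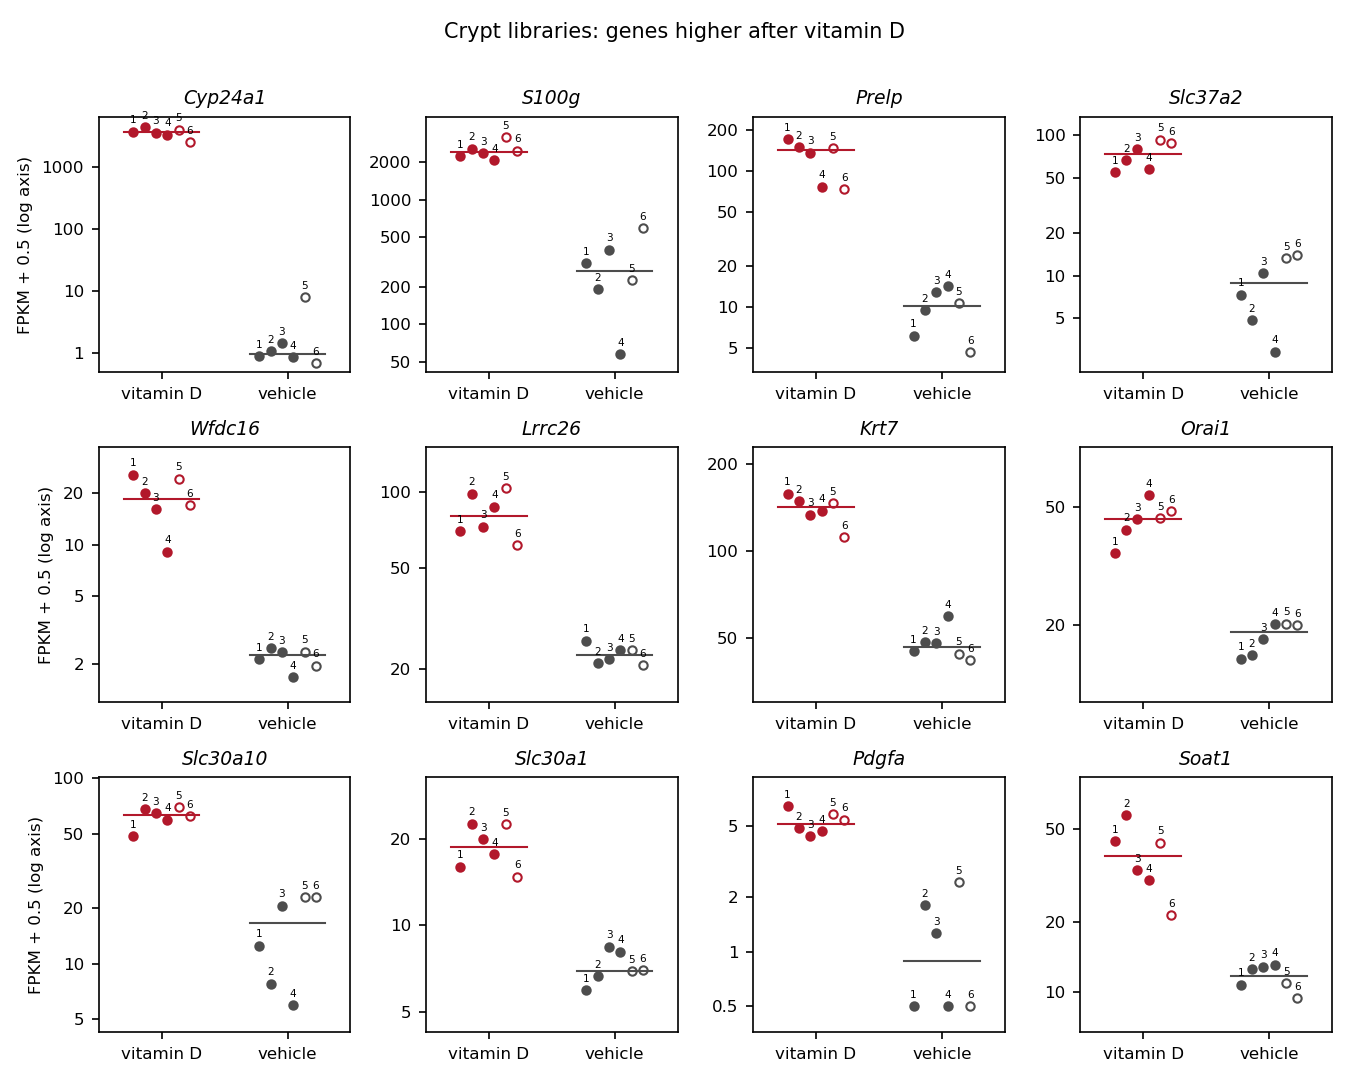
Levels of 12 risen genes in each crypt library as FPKM + 0.5 on log axes, vitamin D on the left and vehicle on the right; numbers are replicates, open circles are replicates 5 and 6, and lines are group medians. In each panel all 6 vitamin D libraries lie above all 6 vehicle libraries, as for Krt7 with 111 to 157 FPKM after vitamin D and 41.5 to 59.1 FPKM after vehicle.

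Several genes of secreted, surface and junction proteins rose steeply. Prelp, a leucine-rich repeat protein of connective tissue matrix, had 73.2, 141 and 172 FPKM in vitamin D libraries and 4.16, 9.61 and 13.7 FPKM in vehicle libraries (3.73 ± 0.30, adjusted p = 3.0e-05). Wfdc16, of a family of small secreted protease inhibitors, had 8.60, 18.0 and 25.2 FPKM in vitamin D libraries, against 1.17, 1.74 and 1.96 FPKM in vehicle libraries (3.06 ± 0.22, adjusted p = 8.5e-06). These 2 were the called members of 14 tested matrix and protease inhibitor genes (median 0.14). Lrrc26, an auxiliary subunit of large-conductance potassium channels, had 61.3, 79.7 and 103 FPKM in vitamin D libraries and 20.3, 22.3 and 25.5 FPKM in vehicle libraries (1.83 ± 0.13, adjusted p = 6.8e-06). Its vehicle libraries lay close together, and the lowest vitamin D library was above all of them. Krt7, a keratin of simple epithelia, had 111, 142 and 157 FPKM in vitamin D libraries, against 41.5, 46.1 and 59.1 FPKM in vehicle libraries (1.54 ± 0.10, adjusted p = 6.8e-06). The other keratins of the list did not follow it: Krt8, Krt18, Krt19, Krt20 and Krt23 had fold changes of -0.62 to 0.03, none called. Pkp1, a plakophilin of desmosomes, had 12.5, 25.2 and 30.4 FPKM in vitamin D libraries and 5.83, 8.87 and 12.2 FPKM in vehicle libraries (1.29 ± 0.24, adjusted p = 0.0145). Krt7 and Pkp1 were the called members of 27 tested desmosome and junction genes (median -0.09). The receptor-type tyrosine phosphatase gene Ptprj had 10.6, 16.0 and 22.7 FPKM in vitamin D libraries, against 4.06, 4.34 and 5.08 FPKM in vehicle libraries (1.71 ± 0.17, adjusted p = 0.00014).

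Of the zinc, manganese and iron list 3 of 20 tested genes rose. Slc30a10, a manganese exporter, had 48.5, 63.4 and 69.5 FPKM in vitamin D libraries and 5.46, 16.1 and 22.5 FPKM in vehicle libraries (2.19 ± 0.32, adjusted p = 0.0026). Slc30a1, a zinc exporter of the plasma membrane, had 14.3, 18.3 and 22.0 FPKM in vitamin D libraries, against 5.45, 6.46 and 7.93 FPKM in vehicle libraries (1.39 ± 0.13, adjusted p = 6.4e-05). Slc39a8, an importer of zinc and manganese, had 8.66, 25.1 and 35.4 FPKM in vitamin D libraries and 5.26, 7.01 and 8.85 FPKM in vehicle libraries (1.56 ± 0.29, adjusted p = 0.0133). Vitamin D replicate 6 was the lowest of its group and lay below the highest vehicle library. No other gene of that list was called, and its median fold change was -0.11. The iron importer gene Slc11a2 and the zinc transporter gene Slc30a4, named after their values were seen, were called lower with the replicate block (adjusted p = 0.0106 and 0.0186, against 0.140 and 0.175 without it). The sugar-phosphate exchanger gene Slc37a2 had 54.2, 72.7 and 93.0 FPKM in vitamin D libraries, against 2.38, 8.35 and 13.6 FPKM in vehicle libraries (3.23 ± 0.35, adjusted p = 0.00025). Its relatives Slc37a1, Slc37a3 and Slc37a4 had fold changes of 0.21, -0.04 and -0.22, none called. It was the called gene of 23 tested carriers of sugars, amino acids and ions (median -0.15). Slc14a1, a urea transporter, had 7.79, 27.5 and 37.0 FPKM in vitamin D libraries and 4.20, 6.37 and 12.8 FPKM in vehicle libraries (1.68 ± 0.35, adjusted p = 0.0321). Its call held only without vitamin D replicate 4 or 6 or vehicle replicate 3 or 4, and in the other leave-one-out fits its adjusted p reached 0.0909. Cnnm1, of a family linked to magnesium transport, had 2.53, 3.08 and 3.82 FPKM in vitamin D libraries, against 0.575, 0.916 and 1.15 FPKM in vehicle libraries (1.41 ± 0.13, adjusted p = 0.0001). It was the called gene of 9 in the phosphate and magnesium list (median 0.13).

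Single metabolic genes were called. Soat1, which esterifies cholesterol, had 20.8, 37.8 and 56.8 FPKM in vitamin D libraries and 8.89, 11.2 and 12.6 FPKM in vehicle libraries (1.66 ± 0.20, adjusted p = 0.00071). None of the 20 tested cholesterol synthesis genes was called by limma, 2 had an unadjusted p under 0.05 and 1 was called in the authors' deposited table (median fold change -0.004). With the replicate block 2 of them rose. Phgdh, the first enzyme of serine synthesis, had 21.3, 38.7 and 49.4 FPKM in vitamin D libraries, against 6.30, 10.7 and 18.3 FPKM in vehicle libraries (1.63 ± 0.26, adjusted p = 0.0054). Shmt1, which moves a carbon from serine onto folate, had 67.6, 91.1 and 123 FPKM in vitamin D libraries and 35.4, 46.1 and 60.5 FPKM in vehicle libraries (0.97 ± 0.17, adjusted p = 0.0107). It was the called gene of 12 in the folate list (median 0.14). Gstp1, an abundant glutathione transferase, had 1239.5, 1359 and 1542 FPKM in vitamin D libraries, against 666, 791 and 1057 FPKM in vehicle libraries (0.74 ± 0.13, adjusted p = 0.0107). Gstm3, of the mu class, had 494, 648 and 3412 FPKM in vitamin D libraries and 52.3, 184 and 324 FPKM in vehicle libraries (2.35 ± 0.52, adjusted p = 0.0413). Vitamin D replicate 5 stood far above the other 5. The call held only without vitamin D replicate 4 or vehicle replicate 4, 5 or 6, and the adjusted p reached 0.108. The mu class genes are close copies, so reads may be split among them. Its neighbour in the list Gstm1, named after its values were seen, had medians of 160 FPKM after vitamin D and 65.7 FPKM after vehicle (1.75 ± 0.41, adjusted p = 0.0574, and 0.0263 with the replicate block). The microsomal transferase gene Mgst1 moved the other way, with 187, 223 and 262 FPKM in vitamin D libraries and 267, 347 and 400 FPKM in vehicle libraries (-0.59 ± 0.13, adjusted p = 0.0404). That call held only without vitamin D replicate 1 or vehicle replicate 4 or 5, with an adjusted p of up to 0.110. Gstp1 and Gstm3 rose and Mgst1 fell among 20 tested genes of the glutathione list (median -0.03).

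The fatty acid sensing nuclear receptor gene Ppard had one of the tightest responses. It had 258, 276 and 285 FPKM in vitamin D libraries, against 141, 153 and 167 FPKM in vehicle libraries (0.83 ± 0.07, adjusted p = 3.0e-05). Pparg, its relative, had 2.72, 4.58 and 6.26 FPKM in vitamin D libraries and 1.63, 2.17 and 2.51 FPKM in vehicle libraries (0.94 ± 0.18, adjusted p = 0.0206). The Pparg call was lost without vitamin D replicate 2, 4 or 5 or vehicle replicate 1 or 3 (adjusted p up to 0.0613). These receptors were the called genes of 24 in the list of bile acid, PPAR and fatty acid oxidation genes, whose median was -0.25 with 19 negative. The third receptor of the family, Ppara, stood at medians of 14.0 FPKM after vitamin D and 20.3 FPKM after vehicle (-0.52 ± 0.31, adjusted p = 0.451). Acaa2, Cyp4a10 and Ppargc1a, named after their values were seen, were called lower with the replicate block (adjusted p = 0.0301, 0.0377 and 0.0393, against 0.287, 0.210 and 0.088 without it). Enterocyte marker levels moved with the negative side of this list and are given with the cell-type markers; their part in it was not tested.

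Several genes that rose had low levels. The growth factor gene Pdgfa had 3.89, 4.63 and 5.90 FPKM in vitamin D libraries, whereas vehicle replicates 2, 3 and 5 had 1.32, 0.767 and 1.93 FPKM and vehicle replicates 1, 4 and 6 were listed at 0 (2.47 ± 0.39, adjusted p = 0.00568). The authors' deposited table gave Pdgfa a log2 fold change of 2.83 with an adjusted p of 0.169. It was the called gene of 19 in the growth factor list (median -0.12). The EGF receptor ligand gene Areg, named after its values were seen, had 2.59, 7.74 and 12.2 FPKM in vitamin D libraries and 1.58, 2.77 and 4.40 FPKM in vehicle libraries (1.18 ± 0.31, adjusted p = 0.0862). Atoh8, a basic helix-loop-helix transcription factor, had 2.39, 4.07 and 5.46 FPKM in vitamin D libraries, against 0.497, 0.802 and 0.967 FPKM in vehicle libraries (1.75 ± 0.17, adjusted p = 0.00014). Fam20c, a kinase of secreted proteins, had 1.22, 2.62 and 3.15 FPKM in vitamin D libraries and 0.252, 0.394 and 0.444 FPKM in vehicle libraries (1.74 ± 0.18, adjusted p = 0.00021). Trim47, of the tripartite motif family of ubiquitin ligases, had 1.15, 1.90 and 5.16 FPKM in vitamin D libraries, against 0.172 and 0.377 FPKM for the median and highest vehicle libraries, the lowest of which was listed at 0 (1.96 ± 0.27, adjusted p = 0.00175). Atoh8, Fam20c and Trim47 stayed under 1 FPKM in every vehicle library, so they were tested because of their vitamin D libraries. Shroom1, a cytoskeletal protein, had 1.86, 5.17 and 9.64 FPKM in vitamin D libraries and 0.260, 0.934 and 1.15 FPKM in vehicle libraries (2.03 ± 0.36, adjusted p = 0.0116). Sh3bgr, a small glutamate-rich protein, had 3.90, 6.44 and 22.5 FPKM in vitamin D libraries, against 1.13, 1.72 and 2.15 FPKM in vehicle libraries (1.93 ± 0.35, adjusted p = 0.0131), with vitamin D replicate 5 far above the rest.

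A pair of genes known from blood cells rose. Cd79b, a chain of the B-cell receptor, had 2.46, 5.62 and 8.22 FPKM in vitamin D libraries and 0.802 and 1.20 FPKM for the median and highest vehicle libraries, the lowest of which was listed at 0 (2.41 ± 0.35, adjusted p = 0.00276). It was the called gene of 9 tested lymphocyte and plasma cell genes, whose other 8 members had fold changes of -0.12 to 0.08. The whole list summed to 43.9 to 139 FPKM in vitamin D libraries and 62.4 to 139 FPKM in vehicle libraries, and the B-cell marker gene Ms4a1 had 0.155 to 0.3002 FPKM in vitamin D libraries and 0.0332 to 0.344 FPKM in vehicle libraries. Of these 16 listed genes, 6 stayed under 0.5 FPKM throughout. Cd177, a surface protein first described on neutrophils, had 2.79, 5.58 and 8.77 FPKM in vitamin D libraries, against 0.755, 1.283 and 3.42 FPKM in vehicle libraries (1.60 ± 0.32, adjusted p = 0.0212). Its call was lost without vitamin D replicate 2, 4 or 5 or vehicle replicate 1, 3, 5 or 6 (adjusted p up to 0.0624). Macrophage and myeloid genes summed to 3.92 to 6.68 FPKM in vitamin D libraries and 3.86 to 6.60 FPKM in vehicle libraries, with 6 of 11 under 0.5 FPKM in every library.

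Falls were smaller, and 8 of the 36 fallen genes are drawn. The drawn genes do not cover the weakest falls, of which the smallest was 0.41 in size (median of the 36, -0.65). Of the 36 fallen genes 15 kept their call in every fit that left out 1 library, as did 87 of the 121 risen genes. Vav3, a guanine nucleotide exchange factor, had 0.480, 0.819 and 0.956 FPKM in vitamin D libraries, against 1.81, 2.12 and 3.52 FPKM in vehicle libraries (-1.20 ± 0.17, adjusted p = 0.0026). It stayed under 1 FPKM in every vitamin D library, so it was tested because of its vehicle libraries. Its relatives Vav1 and Vav2 were not called (-0.05 ± 0.10 and -0.58 ± 0.17, adjusted p = 0.828 and 0.131). Cd44, the hyaluronan receptor and a target of Wnt signalling, had 6.06, 7.09 and 7.53 FPKM in vitamin D libraries and 9.00, 11.3 and 13.2 FPKM in vehicle libraries (-0.64 ± 0.10, adjusted p = 0.0072). Lrat, which makes retinol esters, had 1.87, 2.56 and 4.21 FPKM in vitamin D libraries, against 4.44, 6.46 and 8.96 FPKM in vehicle libraries (-1.08 ± 0.18, adjusted p = 0.00869). Adh4, a retinol-oxidising alcohol dehydrogenase, had 2.92, 5.29 and 8.80 FPKM in vitamin D libraries and 6.39, 17.1 and 24.1 FPKM in vehicle libraries (-1.48 ± 0.31, adjusted p = 0.0313). Vehicle replicate 4 lay within the vitamin D range for Adh4, and the call held only without that library or vitamin D replicate 3 or 6 (adjusted p up to 0.0835). Lrat and Adh4 were the called genes of 14 tested in retinoid handling, of which 12 had a negative fold change (median -0.35). Of 24 enterocyte genes 22 also had a negative fold change (median -0.51), with 0 called by limma, 2 at an unadjusted p under 0.05 and 1 called in the authors' deposited table. Vehicle replicate 4 was the lowest vehicle library for Lrat, for Adh4 and for the enterocyte sum. Their part in the retinoid falls was not tested. With the replicate block the retinol dehydrogenase gene Rdh7, named after its values were seen, joined them (adjusted p = 0.019, against 0.405 without it).

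Single enzyme genes also fell. Sphk1, which makes sphingosine 1-phosphate, had 4.34, 6.27 and 8.67 FPKM in vitamin D libraries, against 10.7, 11.4 and 12.1 FPKM in vehicle libraries (-0.83 ± 0.15, adjusted p = 0.0137). Vehicle libraries of Sphk1 were tight, vitamin D libraries spread more widely, and the groups did not overlap. Acer1, a ceramidase, had 2.63, 3.24 and 5.01 FPKM in vitamin D libraries and 4.95, 6.08 and 7.16 FPKM in vehicle libraries (-0.74 ± 0.14, adjusted p = 0.0203). The Acer1 call was lost without vitamin D replicate 1, 2, 3 or 5 or vehicle replicate 1, 5 or 6 (adjusted p up to 0.0595). St3gal6, a sialyltransferase, had 5.67, 7.33 and 8.07 FPKM in vitamin D libraries, against 8.22, 13.4 and 16.5 FPKM in vehicle libraries (-0.82 ± 0.14, adjusted p = 0.0113). Gcnt2, which branches poly-lactosamine chains, had 7.23, 7.83 and 9.62 FPKM in vitamin D libraries and 9.35, 15.5 and 20.3 FPKM in vehicle libraries (-0.82 ± 0.16, adjusted p = 0.0197). That call was lost without vitamin D replicate 1, 2, 3 or 5 or vehicle replicate 2 (adjusted p up to 0.0573). Tnfaip3, a brake on NF-kappa B signalling, had 4.42, 5.07 and 5.53 FPKM in vitamin D libraries, against 6.06, 9.29 and 11.9 FPKM in vehicle libraries (-0.79 ± 0.14, adjusted p = 0.0118). It was the called gene of 12 tested innate immune genes (median -0.02). Ifngr1, a chain of the interferon gamma receptor, named after its values were seen, had 45.3, 52.4 and 54.0 FPKM in vitamin D libraries and 65.3, 81.3 and 91.6 FPKM in vehicle libraries (-0.62 ± 0.09, adjusted p = 0.00254). Its groups stood clear of each other although the change was small.

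Other large falls rested more on single libraries. Arl4d, a small GTPase, had 2.87, 3.33 and 4.53 FPKM in vitamin D libraries, against 3.64, 8.75 and 12.5 FPKM in vehicle libraries (-1.12 ± 0.24, adjusted p = 0.0403). Cyp2u1, a fatty acid hydroxylase, had 3.04, 3.87 and 6.98 FPKM in vitamin D libraries and 5.26, 8.67 and 12.6 FPKM in vehicle libraries (-0.99 ± 0.22, adjusted p = 0.0413). Both calls held only without vitamin D replicate 6 or vehicle replicate 4 (adjusted p up to 0.106 and 0.111). Slc16a5, of the monocarboxylate carrier family, had 4.16, 5.19 and 6.63 FPKM in vitamin D libraries, against 6.49, 10.3 and 15.6 FPKM in vehicle libraries (-0.91 ± 0.20, adjusted p = 0.0458), held without those libraries or vehicle replicate 2 (adjusted p up to 0.116). Fam73b had 0.470, 0.709 and 1.78 FPKM in vitamin D libraries and 1.29, 2.26 and 2.87 FPKM in vehicle libraries (-1.05 ± 0.22, adjusted p = 0.0278), held without vitamin D replicate 6 or vehicle replicate 4 or 5 (adjusted p up to 0.0811).

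**Figure D2:**
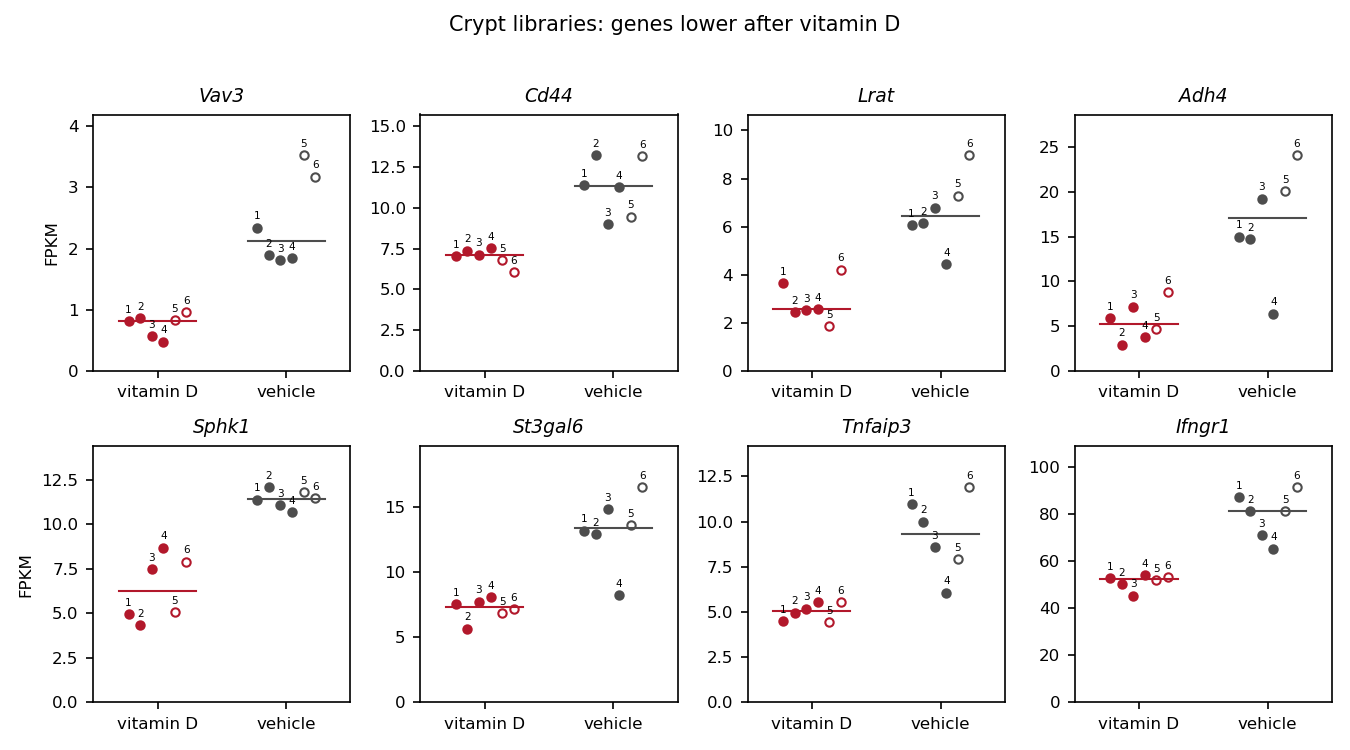
Levels of 8 fallen genes in each crypt library in FPKM on linear axes from 0, vitamin D on the left and vehicle on the right; numbers are replicates, open circles are replicates 5 and 6, and lines are group medians. Groups are apart in 7 panels, and for Adh4 the highest vitamin D library, at 8.80 FPKM, lies above vehicle replicate 4, at 6.39 FPKM.

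A single vehicle library stood out in the fallen genes. Vehicle replicate 4 was the lowest vehicle library in 29 of the 36 fallen genes (80.6%), against 27.1% of all tested genes, and the highest vehicle library in 45 of the 121 risen genes (37.2%), against 27.3% of all tested. In the vitamin D group, replicate 6 was the highest in 21 of the 36 fallen genes (58.3%, against 24.2% of all tested) and the lowest in 55 of the 121 risen genes (45.5%, against 24.3%). Vehicle replicate 4 also had the lowest enterocyte marker sum, at 9322 FPKM, against 21129 to 68797 FPKM in the other vehicle libraries. Vitamin D replicate 6 had the highest enterocyte sum of its group, at 41900 FPKM. All 157 called genes also passed without vehicle replicate 4.

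Stem cell genes gave no common direction. Of 17 tested crypt-base stem cell genes, Cd44 was the called one, 9 had a positive fold change and the median was 0.04. Lgr5, the receptor that marks crypt-base stem cells, had 1.52, 3.03 and 4.95 FPKM in vitamin D libraries and 3.41, 6.10 and 7.49 FPKM in vehicle libraries (-0.93 ± 0.24, adjusted p = 0.0906). Smoc2, another stem cell marker, had medians of 50.01 FPKM after vitamin D and 40.3 FPKM after vehicle (0.33 ± 0.12, adjusted p = 0.229). Of the 5 tested reserve stem cell genes all had positive fold changes (median 0.52), and the RNA-binding protein gene Msi1 rose, with 9.42, 14.0 and 20.0 FPKM in vitamin D libraries, against 4.79, 6.83 and 8.06 FPKM in vehicle libraries (1.04 ± 0.19, adjusted p = 0.0131). Hopx, of the same list, was called with the replicate block (0.54 ± 0.23, adjusted p = 0.0333 with it and 0.277 without it). Lgr5, Smoc2 and Hopx were named after their values were seen.

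Signalling pathways that set crypt cell fate had few called members. Limma called 0 of 16 tested Wnt pathway genes (median -0.05), with 5 at an unadjusted p under 0.05 and 2 called higher in the authors' deposited table. With the replicate block Myc and Ccnd1 rose and Lgr4 fell. Myc, a target of the pathway, had 16.9, 29.7 and 34.9 FPKM in vitamin D libraries and 11.4, 13.3 and 23.3 FPKM in vehicle libraries (0.85 ± 0.22, adjusted p = 0.079, and 0.0164 with the block). Ccnd1, a cyclin, had 34.6, 41.5 and 53.5 FPKM in vitamin D libraries, against 18.7, 28.6 and 45.3 FPKM in vehicle libraries (0.54 ± 0.19, adjusted p = 0.191, and 0.0422 with the block). Limma called 0 of 15 Notch pathway genes (median 0.01), with 2 at an unadjusted p under 0.05 and 1 called higher in the authors' deposited table. Among them Atoh1, the factor that sets the secretory lineage, stood at 13.0, 20.2 and 21.4 FPKM in vitamin D libraries and 11.7, 13.0 and 14.1 FPKM in vehicle libraries (0.50 ± 0.12, adjusted p = 0.065). Of 19 BMP and TGF-beta pathway genes, the type I receptor gene Acvr1 rose, with 6.53, 9.18 and 10.6 FPKM in vitamin D libraries, against 5.00, 5.91 and 6.66 FPKM in vehicle libraries (0.55 ± 0.12, adjusted p = 0.0321). Its call held only without vitamin D replicate 1 or 4 or vehicle replicate 3 or 4 (adjusted p up to 0.0904). The BMP targets Id2 and Id3 went opposite ways, at -0.61 ± 0.23 and 0.67 ± 0.25 (adjusted p = 0.234 and 0.218, and 0.0298 each with the block). Pdlim2, a protein with PDZ and LIM domains, had 20.5, 32.5 and 74.0 FPKM in vitamin D libraries and 1.62, 7.93 and 26.2 FPKM in vehicle libraries (2.30 ± 0.54, adjusted p = 0.0574, and 0.028 with the block). Myc, Ccnd1, Lgr4, Atoh1, Id2, Id3 and Pdlim2 were named after their values were seen.

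**Figure D3:**
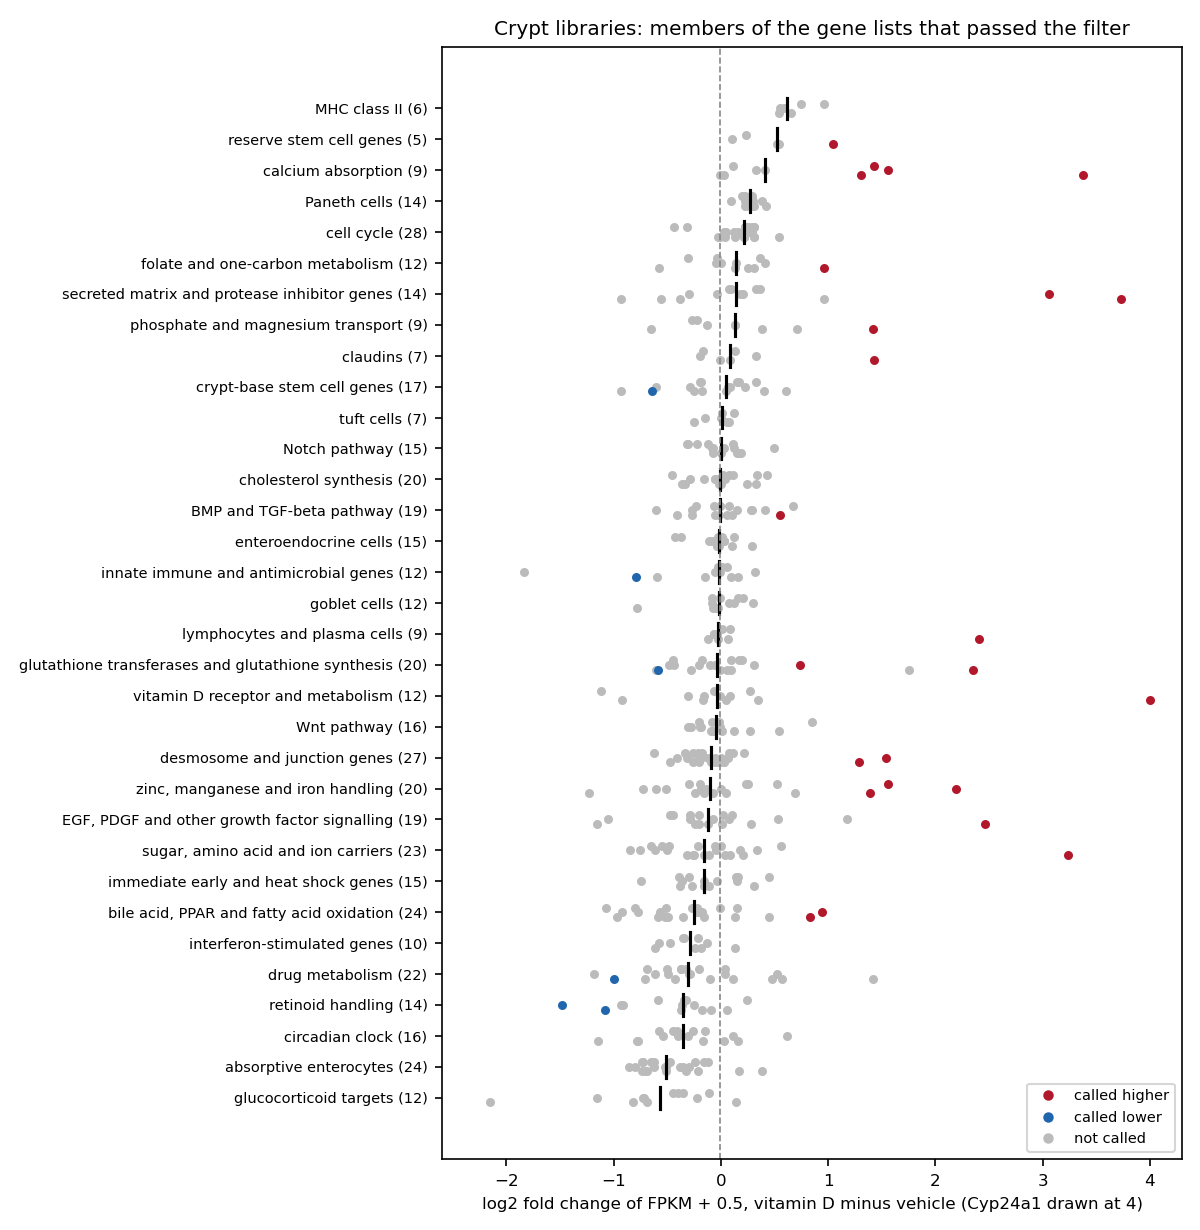
Log2 fold changes of FPKM + 0.5, vitamin D minus vehicle, of the tested members of gene lists with 5 or more; each point is a gene, the black bar is the list's median, the dashed line is the median of all genes (-0.01), and the number in brackets is the count tested. Called genes are red (higher) or blue (lower), and list medians stay between -0.57 and 0.62. Some called genes are not the outermost of their list, such as Cd44 at -0.64 in a stem cell list that reaches -0.93.

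Cell-type markers were not called in most lists, but some lists were one-sided. For comparison, 47.6% of all tested genes had a positive fold change, and 15.3% had an unadjusted p under 0.05 in limma. All 14 tested Paneth cell genes had positive fold changes of 0.10 to 0.42 (median 0.27), and 24 of 28 cell cycle genes were positive (median 0.22). Limma called 0 of either, with 0 of the Paneth genes and 5 of the cell cycle genes at an unadjusted p under 0.05. Neither list had a call in the authors' deposited table. Vehicle replicate 4 had the highest sum of both, with 36228 FPKM for Paneth genes and 1575 FPKM for cell cycle genes. Defensin genes are near-identical copies, so their reads may be split among them. Enterocyte genes had negative fold changes in 22 of 24 (median -0.51), with 0 called, 2 at an unadjusted p under 0.05 and 1 called lower in the authors' deposited table and with the block. That gene was Sis, the brush border sucrase, with 790, 913 and 1248 FPKM in vitamin D libraries and 765, 1873 and 2068 FPKM in vehicle libraries. The enterocyte sum was 11217, 18176 and 41900 FPKM in vitamin D libraries, against 9322, 28313 and 68797 FPKM in vehicle libraries. The vitamin D range lay within the vehicle range. Vehicle replicates 5 and 6, at 56478 and 68797 FPKM, lay above every vitamin D library. Vehicle replicate 4 alone lay below them all, and the next lowest vehicle library had 21129 FPKM. Replicates 5 and 6, which the labels name in another style, held the highest 2 enterocyte sums and the highest 2 goblet cell sums in each group. Goblet, enteroendocrine and tuft cell genes had medians of -0.02, -0.02 and 0.01, with 0 of 12, 15 and 7 called by limma or in the authors' deposited table, and 1, 1 and 0 at an unadjusted p under 0.05. Stromal, muscle and endothelial genes summed to 10.4 to 11.5 FPKM in vitamin D libraries and 10.1 to 15.0 FPKM in vehicle libraries. The glucocorticoid target and clock lists had medians of -0.57 and -0.35 with 0 called, 4 and 5 at an unadjusted p under 0.05, 4 and 2 called lower in the authors' deposited table and 3 each called lower with the block. Hlf, a clock output factor chosen after its values were seen, had 1.38, 5.02 and 8.68 FPKM in vitamin D libraries, against 3.10, 13.4 and 17.9 FPKM in vehicle libraries (-1.15 ± 0.43, adjusted p = 0.225, and 0.00212 with the block). MHC class II genes were positive in 6 of 6 (median 0.62), with 0 called by limma or in the authors' deposited table and 0 at an unadjusted p under 0.05. Interferon-stimulated genes were negative in 9 of 10 (median -0.29) and immediate early and heat shock genes in 10 of 15 (median -0.16), with 0 called by either and 0 and 1 at an unadjusted p under 0.05.

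**Figure D4:**
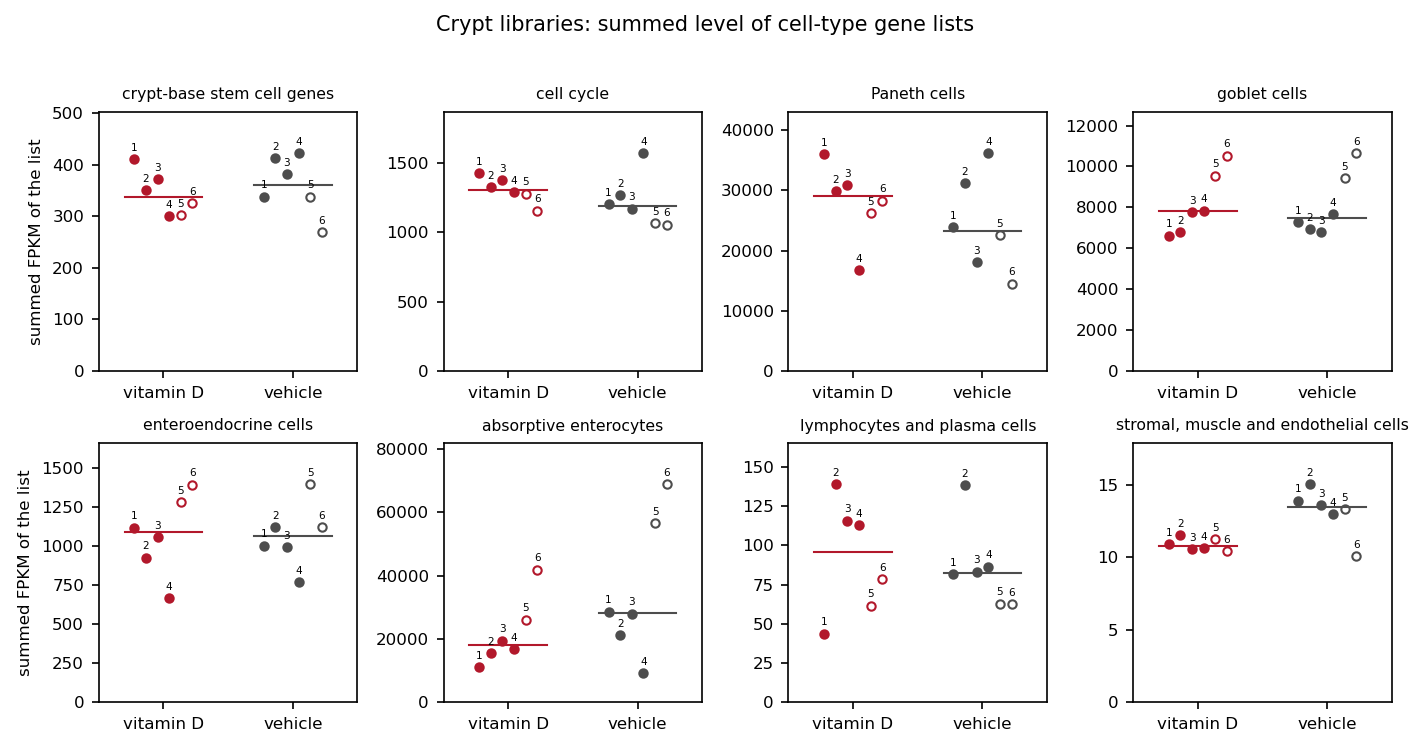
Summed FPKM of the members of 8 cell-type gene lists in each crypt library, vitamin D on the left and vehicle on the right; numbers are replicates, open circles are replicates 5 and 6, and lines are group medians. Enterocyte sums run from 11217 to 41900 FPKM after vitamin D and from 9322 to 68797 FPKM after vehicle, with vehicle replicate 4 lowest.

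The crypt genes were then set beside villi (7 vitamin D and 6 vehicle libraries) and scraped colon epithelium (7 and 6 libraries), each tested within its own table by the same rule. Of the 121 genes that rose in crypts, 98 were tested in villi, 92 of them had a positive fold change there and 61 were called higher, in a tissue where 2.17% of tested genes were called higher. In colon 112 were tested, 100 were positive and 33 were called higher, where 0.763% of tested genes were. No share over all genes was taken for the signs in villi and colon. Both tissues called 25 of the 121 higher, among them Krt7, Lrrc26, Ppard and Atp2b1, and neither called 52. Those 52 include genes that were tested in neither tissue, such as Wfdc16, Pdgfa, Fam20c and Slc14a1. Of the 36 fallen genes, 32 were tested in villi, where 29 were negative and 5 were called lower (0.299% of all genes tested there). In colon 32 were tested, 30 were negative and 0 were called lower by limma (0.0607% of all genes). At an unadjusted p under 0.05 in limma, 17 were lower in villi and 16 in colon. No share over all genes was taken for these unadjusted counts. A call in one tissue and not in another does not show a difference, so the responses were subtracted in a limma fit over all 38 libraries. Sex-linked genes gave a female pattern in 4 of 7 vitamin D and 3 of 6 vehicle libraries of villi, and likewise of colon. In crypts that pattern was in 5 of 6 libraries of each group. The fit had no term for sex, and the part of sex in differences between tissues was not tested.

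In the test of crypts against villi, 3 of 9497 genes passed (0.0316%). Of these, 1 had the higher response in crypts (0.0105%) and 2 the lower (0.0211%), and 0 were among the 157. Of the 157, 35 had an unadjusted p under 0.05 in limma for the difference from villi, and 59 for the difference from colon. The share of all genes with such a p was not taken. Zfp961, a zinc finger protein, had 18.6 ± 0.752 FPKM in vitamin D crypts (SD, n = 6) and 15.8 ± 1.42 FPKM in vehicle crypts (n = 6). In villi it had 18.9 ± 2.27 FPKM after vitamin D (n = 7) and 10.2 ± 0.926 FPKM after vehicle (n = 6). Its response was 0.23 in crypts and 0.86 in villi, a difference of -0.62 ± 0.11 (adjusted p = 0.0158). Ppl, the desmosomal linker periplakin, had a fold change of -0.33 ± 0.10 in crypts and 0.66 ± 0.13 in villi, a difference of -0.998 ± 0.18 (adjusted p = 0.0158, and 0.0521 without vehicle villi replicate 6). It had 1.73 ± 0.176 FPKM in vitamin D crypts and 2.30 ± 0.186 FPKM in vehicle crypts, against 2.19 ± 0.319 and 1.21 ± 0.311 FPKM in vitamin D and vehicle villi. S100g, whose fold change was 3.38 in crypts and 1.36 in villi, had a difference of 2.02 ± 0.55 that did not pass (adjusted p = 0.490). Prelp had a difference of 2.10 ± 0.64 (adjusted p = 0.688), from 126 ± 41.2 FPKM in vitamin D crypts and 3.36 ± 3.26 FPKM in vitamin D villi, levels from tables normalised separately. Nedd9, a scaffold of cell adhesion signalling, and Myo19, a mitochondrial myosin, passed with the replicate block, both with the smaller response in crypts (differences -0.92 and -0.77, adjusted p = 0.0162 and 0.0406, against 0.268 each without the block). Fhl2, a LIM domain protein named after its values were seen, was the gene with the higher response in crypts: 0.63 ± 0.16 there and -0.50 ± 0.14 in villi, neither called, a difference of 1.13 ± 0.22 (adjusted p = 0.04). That call was lost in a fit over crypts and villi alone (adjusted p = 0.0569) and in 19 of the 25 fits that left out 1 library (adjusted p up to 0.127), holding only without vitamin D crypt replicate 4, vehicle crypt replicate 5, vitamin D villi replicate 2 or 6 or vehicle villi replicate 4 or 5.

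In the test of crypts against colon, 8 of 10378 genes passed (0.0771%), 7 with the higher response in crypts (0.0675%) and 1 with the lower (0.00964%). Of these 8, 6 were risen crypt genes and 1 a fallen one, and the other was Nceh1, a cholesterol ester hydrolase named after its values were seen, which was called in neither tissue (0.71 ± 0.19 in crypts and -0.50 ± 0.17 in colon, difference 1.21 ± 0.25, adjusted p = 0.0392). The Nceh1 call was lost in a fit over crypts and colon alone (adjusted p = 0.131) and held only without vitamin D crypt replicate 4 or 6, vehicle crypt replicate 3, vitamin D colon replicate 1, 6 or 7 or vehicle colon replicate 4 or 5 (adjusted p up to 0.127). Cnnm1 had 3.18 ± 0.507 FPKM in vitamin D crypts and 0.882 ± 0.202 FPKM in vehicle crypts (SD, n = 6 each), but 1.09 ± 0.229 FPKM in vitamin D colon (n = 7) and 1.53 ± 0.262 FPKM in vehicle colon (n = 6). Its difference of response was 1.77 ± 0.16 (adjusted p = 8.6e-09). Pgap1, which trims the lipid anchor of surface proteins, had 7.22, 11.9 and 15.9 FPKM in vitamin D crypts, against 3.85, 4.68 and 5.43 FPKM in vehicle crypts. It averaged 4.52 ± 1.22 FPKM in vitamin D colon and 5.01 ± 1.56 FPKM in vehicle colon, a difference of response of 1.38 ± 0.26 (adjusted p = 0.0126). Pip5k1b, which makes the membrane lipid phosphatidylinositol 4,5-bisphosphate, changed little but tightly: it had 49.4, 53.2 and 57.8 FPKM in vitamin D crypts and 36.5, 39.0 and 39.8 FPKM in vehicle crypts, with a difference from colon of 0.57 ± 0.10 (adjusted p = 0.0126). Slc37a2 had 72.8 ± 16.2 FPKM in vitamin D crypts and 8.29 ± 4.55 FPKM in vehicle crypts, whereas colon held 65.8 ± 53.7 FPKM after vitamin D and 62.3 ± 43.0 FPKM after vehicle. Its difference of 3.25 ± 0.66 (adjusted p = 0.0369) was lost in a fit over crypts and colon alone (adjusted p = 0.166) and without vitamin D crypt replicate 2, 3 or 5, vehicle crypt replicate 1, 2 or 4, vitamin D colon replicate 2, 3, 4 or 5 or vehicle colon replicate 3, 5 or 6 (adjusted p up to 0.102). Slc30a1 was at the threshold (difference 1.06 ± 0.23, adjusted p = 0.0497), and the call held only without vitamin D crypt replicate 6, vehicle crypt replicate 3 or 4, vitamin D colon replicate 1 or vehicle colon replicate 2 (adjusted p up to 0.147). The uncharacterised gene 5031439G07Rik, named after its values were seen, also passed (0.73 ± 0.14, adjusted p = 0.0189, and 0.0555 without vehicle colon replicate 6). Cnksr3, a scaffold protein, fell in crypts, with 3.75, 4.12 and 4.65 FPKM in vitamin D libraries and 4.46, 6.16 and 7.21 FPKM in vehicle libraries (-0.49 ± 0.11, adjusted p = 0.0379). Its crypt call held only without vitamin D replicate 6 or vehicle replicate 4 (adjusted p up to 0.102). In colon it had 18.9 ± 3.53 FPKM after vitamin D and 14.9 ± 1.76 FPKM after vehicle, and the difference of response was -0.81 ± 0.15 (adjusted p = 0.0126).

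**Figure D5:**
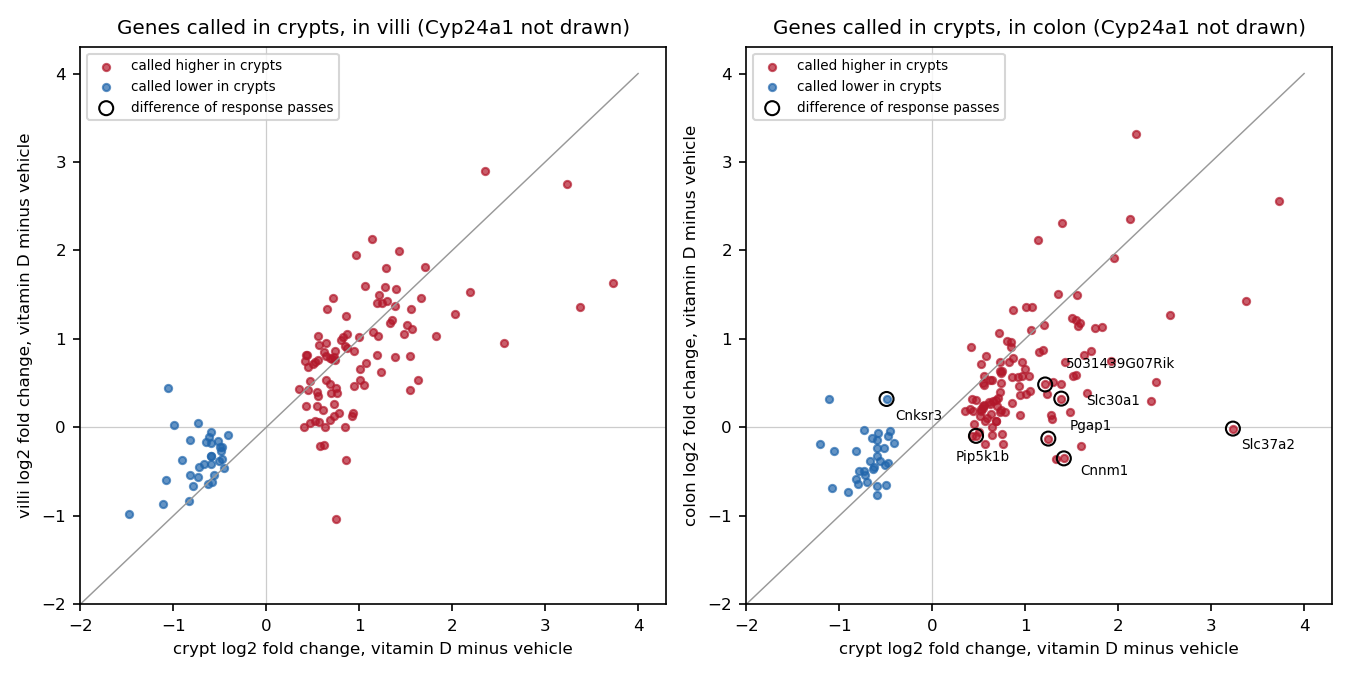
Log2 fold changes, vitamin D minus vehicle, of the genes called in crypts (horizontal) against villi (left panel, vertical) and colon (right panel, vertical); each point is a gene, the diagonal marks equal responses, and rings mark genes whose difference of response passed. Rings appear in the colon panel alone, where Slc37a2 lies at 3.23 in crypts and -0.02 in colon.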

How the data were processed

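RNA-seq of 38 libraries was taken as deposited: the authors' crypt, villus and colon tables hold FPKM values per gene, with kallisto 0.45.0, DESeq 1.28.1, DESeq2 and the build mm9 named in the submitters' processing notes without a role for each. The authors' deposited table of the crypt comparison holds per gene a p-value, its adjusted form, a log2 fold change, a test score and a mean signal, and the text names it wherever it is used. Depth is the number of reads at which values under 30 reads fell on whole reads: 83.0% to 91.5% of them lay within 0.05 of a whole number, at 15.5 to 17.5 M reads. Every pair of libraries differed beyond counting noise (chi-square of 19.1 or more per degree of freedom). All 38 libraries had a mapped column, and each was placed in its group by its labels.

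The test of genes with 1 FPKM in 6 libraries used log2(FPKM + 0.5) in limma 3.58.1 (R 4.3.3, mean-variance trend, Benjamini-Hochberg adjustment over all genes tested), without covariates. Responses were compared between tissues as a difference of 2 contrasts over all 38 libraries. The code was tested on simulated data. Only the fits with a replicate block treated crypt libraries of the same number as pairs. Libraries with the same number deviated together from their group means in all 6 pairs (correlation 0.119, 0.456, 0.244, 0.374, 0.354 and 0.545). For 3 of 6 vitamin D libraries the best-matching vehicle library had another number, and no label used here says what a number stands for. The main test has no block. Genes were named by rule: S100g, Atp2b1, Trpv6, Cyp24a1, Cyp27b1 and Vdr, then, of called genes with 2 FPKM in the higher group, the 20 that rose and the 12 that fell most, up to 4 called genes of each list by smallest p, and for each difference of response the 6 genes of smallest p among those called in a tissue. Members and gene lists were chosen with earlier results of these data known. Of 687 listed genes 661 matched by symbol and 12 by an older symbol, and 515 passed the filter. Intervals and spreads cover these libraries only. Some results are not reported here.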

Additional observations from a re-analysis of the deposited data

Results flagged for a closer look

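Single libraries stood apart from the other 5 of their group in 4 of the 114 groups of 6 checked, by the gap to the nearest library as a share of the range on the log2(FPKM + 0.5) scale of the test. Chance gives about 1 in 20. On the FPKM scale 7 groups stood apart this way: the Cyp24a1, Ptprj and Fam73b groups, Gstm3 (vitamin D replicate 5, 3412 FPKM), Trim47 (vitamin D replicate 5, 5.159 FPKM), Cd177 (vehicle replicate 4, 3.424 FPKM) and Krt7 (vehicle replicate 4, 59.1 FPKM), and the St3gal6 group did not. Cyp24a1 had 7.352 FPKM in vehicle replicate 5. Ptprj had 5.078 FPKM in vehicle replicate 6. Fam73b had 1.783 FPKM in vitamin D replicate 6, within the range of the vehicle libraries. St3gal6 had 8.218 FPKM in vehicle replicate 4, the lowest of that group.

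The response of some genes differed between tissues in the test of the difference itself. Against villi, the crypt response was lower for Zfp961 (-0.6247) and for Ppl (-0.9976). Against colon, the crypt response was higher for Cnnm1 (1.767), Pip5k1b (0.5676), Pgap1 (1.376), Slc37a2 (3.249) and Slc30a1 (1.064) and lower for Cnksr3 (-0.8123). These are differences of log2 fold changes. Of the 25 fits that left out 1 library, Slc30a1 lost its call in 20, Slc37a2 in 13 and Ppl in 1, and the others kept theirs in all.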

How the results depend on the processing

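Counts of genes called higher and lower in crypts (121 and 36) were within 1.5 times of these under pseudocounts of 0.1 (120 and 36) and 1 (122 and 37), median-of-ratios rescaling (118 and 38), quantile normalisation (139 and 52), robust variance (123 and 36), no filter (123 and 35) and a mean of 5 FPKM (92 and 26). They were 249 and 195 with the replicate block, 242 and 149 with the naming style as covariate, 175 and 97 with the sex pattern as covariate, 742 and 511 with array weights, 308 and 242 in the authors' deposited table, and 80 and 4 in replicates 1 to 4 alone. Chosen after seeing the data, leaving out both libraries of number 4 gave 477 and 317, and replicates 1 to 4 with the replicate block gave 57 and 5. Leaving out 1 library gave 88 to 616 and 18 to 449. The replicate block, which pairs libraries by their number, changed the call of 0 of the 57 genes named by rule and tested in crypts. That rule took most of them from genes the main test had called, so this count says little about other genes. Over all genes, 153 main calls held with the block, 4 were lost, and 444 genes were called with it. Some genes named after their values were seen, such as Myc and Hlf, were called with the block and not by the main test. Of the same 57 genes, 22 lost their call in replicates 1 to 4 alone and 9 with no filter. The cause of these shifts was not tested.

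For crypts minus villi (1 and 2 called), no filter gave 9 and 3, a fit over the 2 tissues alone gave 0 higher, the block gave 3 and 7, and leaving out 1 library gave 0 to 2 and 1 to 3. For crypts minus colon (7 and 1), no filter gave 15 and 14, the block 15 and 9, and leaving out 1 library 3 to 9 and 1 to 4. Differences that did not pass changed sign for Cyp24a1 against villi (-0.12 to 1.36) and Atp2b1 against colon (-0.075 to 0.18) when 1 library was left out. The filter of 1 FPKM in 6 libraries left out Trpv6.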
